A study of Mus musculus with 24 samples.

Results

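Acetaminophen (APAP) livers harvested 24 h after an overdose were compared with untreated livers in both genotypes of an E2f7/E2f8 study, using 10 of the 24 liver RNA-seq libraries of the series. The libraries were chosen by their labels alone. There were 4 control and 4 LKO libraries at 0 h, each from 1 mouse, and 1 control and 1 LKO library at 24 h, each made from RNA of 3 mice pooled before sequencing. LKO (liver-specific knockout) mice carried E2f7 loxP/loxP and E2f8 loxP/loxP alleles with the Alb-Cre transgene (Tg/0), which is expressed from fetal life in hepatocytes and in cells of the same lineage. Control littermates carried the same floxed alleles without Cre, and both genotypes carried the R26R mTmG/mTmG reporter on a mixed, mainly FVB background. All mice were males of 2.5 months that had been fasted overnight for about 16 h. The 24 h mice had received 300 mg/kg APAP intraperitoneally, and the 0 h mice were fasted and untreated. Feeding after the injection and the clock time of harvest are not given in the sources used here, so effects of APAP, of refeeding and of time of day cannot be told apart.

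APAP is cleared in the liver mainly by glucuronidation and sulfation. A smaller part is oxidised by cytochrome P450 enzymes of the hepatocytes around the central vein, above all CYP2E1, to the reactive product NAPQI. Glutathione traps NAPQI, and when glutathione runs out NAPQI binds proteins and the hepatocytes around the central vein die. Surviving hepatocytes switch on antioxidant genes through the transcription factor NRF2, monocytes and neutrophils enter from the blood, and hepatocytes at the edge of the dead zone later enter the cell cycle.

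The libraries held 12665686 to 19046197 reads on genes, with 15742169 in the control 24 h pool and 17629793 in the LKO 24 h pool. Expression is given as CPM (counts scaled to a fixed library total) after TMM scaling, and 3 counts, taken as the limit of detection, were 0.154 to 0.259 CPM. Hepatocyte identity was plain in every library: Alb (serum albumin) was at 26330 to 82320 CPM in the 8 untreated mice, 76710 CPM in the control pool and 57240 CPM in the LKO pool. E2f8 was at 11.6 to 18.6 CPM in the control mice and 17.6 to 34.0 CPM in the LKO mice, and E2f7 did not pass the filter on low counts, with 0.117 to 0.495 CPM over the 8 mice. Counts over a whole gene do not separate exons inside and outside the loxP sites, so these values check nothing about the deletion. By root-mean-square log2 distance, the 8 untreated mice lay 0.269 to 0.55 from each other, the 2 pools 0.365 from each other, and the pools 0.638 to 0.791 from the mice.

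The control 24 h pool held transcripts of fat cells. Adipoq (adiponectin, a hormone of fat cells; chr16:23146536-23158028, GRCm38) was at 4.09 CPM in that pool, at 0 in the LKO pool and at no more than 0.0602 CPM in any mouse. Cfd (adipsin) was at 13.2 CPM against 0.103 CPM in the LKO pool, and Retn (resistin) was at 1.26 CPM against 0. Plin1, the lipid-droplet coat protein of fat cells, was at 1.63 CPM in the control pool, 0.154 CPM in the LKO pool and 0 in every mouse. All 4 defining markers were thus at or near 0 outside the control pool. None of them passed the filter on low counts over the 10 libraries, so no test of them was made. The adipocyte list was divided and depended on the pools. Of its 16 genes 9 were tested, 3 were called higher (Fabp4, Cidec, Plin4) and 4 lower (Car3, Thrsp, Lpl, Adrb3), with a median log2 change of -0.61. Without the LKO pool 14 passed the filter (median 1.99), and without the control pool 9 did (median -1.07). With the control pool alone left at 24 h, genes near 0 everywhere else pass the filter through that pool. The median of 1.99 is therefore over a different set of genes and is no test of a rise. The call of Plin4 was lost without the LKO pool (0.96, edgeR adjusted p = 0.352), that of Lpl likewise (-1.37, edgeR adjusted p = 0.0505), and that of Thrsp without the control pool (-1.72, edgeR adjusted p = 0.17) or the LKO pool (-1.71, edgeR adjusted p = 0.143). Its summed level was 1860 to 3720 CPM in the mice, 742 CPM in the control pool and 1070 CPM in the LKO pool, most of it from Car3 and Thrsp, which hepatocytes also express. In bulk RNA, fewer cells of a type and less RNA per cell cannot be told apart, and this holds for every cell-type marker below.

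**Figure D1:**
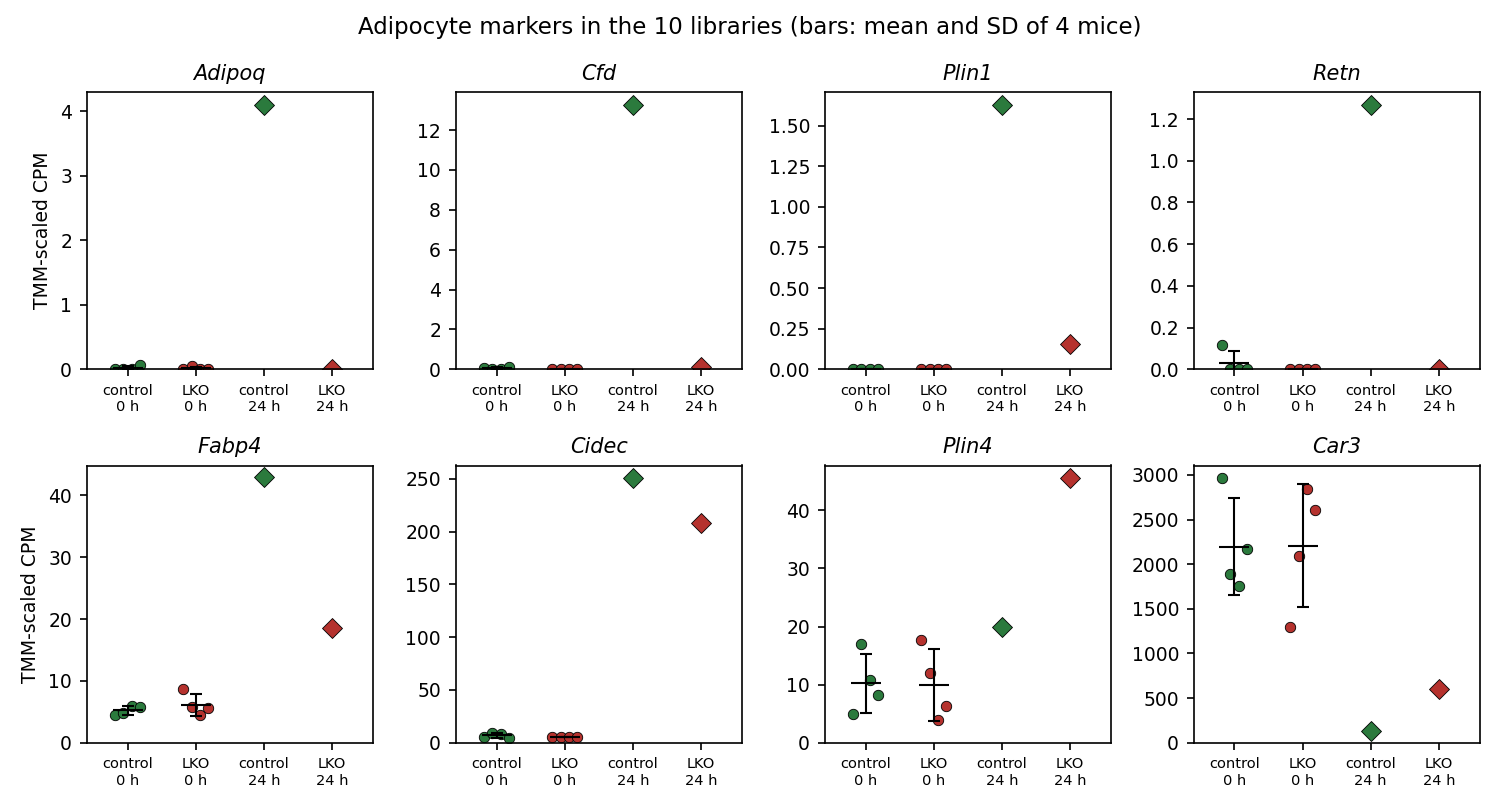
Expression of 8 fat-cell genes in each library (vertical axes, TMM-scaled CPM, linear; circles, single mice at 0 h with mean and SD of 4; diamonds, pools of 3 mice at 24 h; green, control; red, LKO). Adipoq, Cfd, Plin1 and Retn stood out only in the control 24 h pool (4.09, 13.2, 1.63 and 1.26 CPM), whereas Cidec was high in both pools (250 and 208 CPM) and Car3 was low in both (128 and 597 CPM).

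With genotype as a covariate, 3664 of 13194 genes tested passed an adjusted p of 0.05 and a 1.5-fold change. Of all genes tested, 1965 (14.9%) were called higher and 1699 (12.9%) lower at 24 h, and 5697 had an unadjusted p under 0.05. These shares are the background for each gene group below. The number of genes called changed with the pools: without the control pool 836 genes were called higher and 570 lower, and without the LKO pool 1281 and 1004. Scaling also mattered for the split. Without TMM factors the median of all genes moved from -0.003 to 0.134 on the log2 scale, with 2582 called higher and 1212 lower. Among the genes called, both pools lay above all 8 mice for 1819 of those called higher (92.6%) and below all 8 for 1578 of those called lower (92.9%). Over all genes tested, both pools lay above all mice for 19.8% and below all mice for 18.2%.

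**Figure D2:**
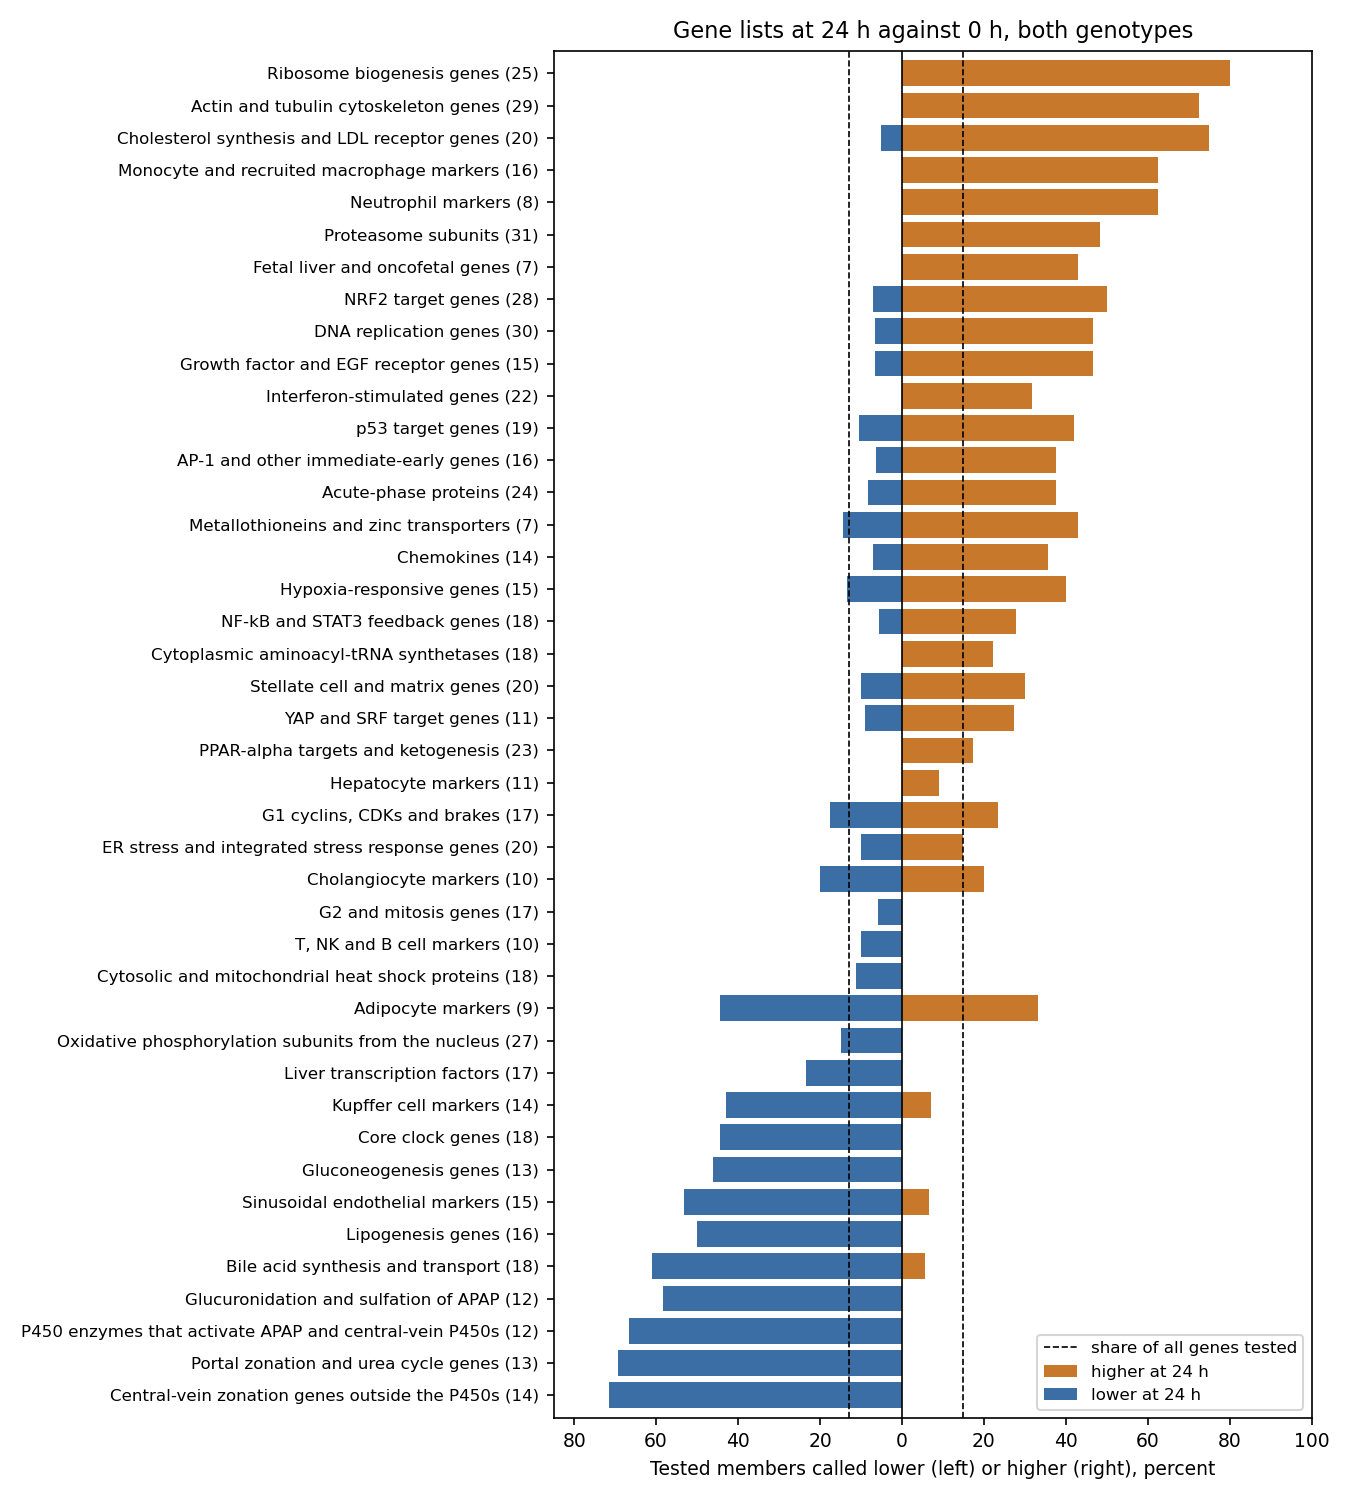
Share of each gene list's tested members called lower (blue, to the left) or higher (orange, to the right) at 24 h against 0 h in both genotypes (horizontal axis, percent; number tested in brackets; lists with 5 or more tested members). Dashed lines mark the shares over all genes tested, 12.9% lower and 14.9% higher. Ribosome biogenesis, cytoskeleton and cholesterol synthesis genes reach furthest to the right, and central-vein, portal and P450 genes furthest to the left.

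NRF2 target genes rose more often than they fell. Of 28 listed and tested, 14 were called higher and 2 lower, with a median log2 change of 0.64, and without the control pool 11 were called higher and 0 lower. Srxn1 (chr2:152105516-152111376), which encodes the sulfiredoxin that restores oxidised peroxiredoxins, was at 27.0 to 42.8 CPM in the 8 mice (median 37.7), 585 CPM in the control pool and 534 CPM in the LKO pool. Both pools lay far above every mouse, and the change was 3.97 ± 0.16 on the log2 scale (SE, edgeR adjusted p = 2.56e-08). G6pdx, the enzyme that feeds the NADPH-making pentose phosphate pathway, was at 3.13 to 4.95 CPM in the mice (median 3.83), 24.1 CPM in the control pool and 21.8 CPM in the LKO pool (2.55 ± 0.17, edgeR adjusted p = 1.64e-06). Nqo1, a quinone reductase, was at 2.75 to 7.48 CPM in the mice (median 4.86), 16.7 CPM in the control pool and 34.8 CPM in the LKO pool (2.35 ± 0.28, edgeR adjusted p = 0.000138). Again no mouse reached either pool. The thioredoxin reductase gene Txnrd1 was at 110 to 181 CPM in the mice (median 142), 322 CPM in the control pool and 299 CPM in the LKO pool (1.09 ± 0.15, edgeR adjusted p = 0.000275). Hmox1, which degrades heme, rose by 1.51 ± 0.20 (edgeR adjusted p = 0.000219), from 13.5 to 25.0 CPM in the mice (median 18.5) to 68.8 CPM in the control pool and 44.6 CPM in the LKO pool.

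Slc7a11, the cystine importer of the same list that supplies glutathione synthesis, had 2 counts over all 8 mice and 396 over both pools, a ratio of 704 (95% exact counting interval 194 to 5830), with 6.14 CPM in the control pool and 15.1 CPM in the LKO pool. Gsta1, a glutathione S-transferase (chr9:78230656-78242684), was at 0.173 to 2.57 CPM in the mice (median 0.66), 136 CPM in the control pool and 111 CPM in the LKO pool. Its change was 6.86 ± 0.47 on the log2 scale (edgeR adjusted p = 2.33e-06), but near-identical family members may share its reads. Gclm, the modifier subunit of the enzyme that starts glutathione synthesis, was not called: its values were 138 to 189 CPM in the mice, 131 CPM in the control pool and 148 CPM in the LKO pool (-0.21 ± 0.15, edgeR adjusted p = 0.33). The members called lower were Gstm3 and Abcc2, the latter an exporter of glutathione conjugates into bile. Abcc2 was at 315 to 517 CPM in the mice, 189 CPM in the control pool and 236 CPM in the LKO pool (-0.97 ± 0.20, edgeR adjusted p = 0.00358), a call that was lost without the control pool (-0.79, edgeR adjusted p = 0.0957). Abcc4, an exporter on the blood side, rose instead, from 1.21 to 3.18 CPM to 6.99 and 5.03 CPM in the control and LKO pools, and its call was also lost without the control pool (0.97, edgeR adjusted p = 0.159).

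NRF2 acts through the antioxidant response element, searched here as TGACNNNGC on both strands from 250 bases before to 50 bases after each RefSeq gene start (GRCm38.p6). Shares are of genes with a RefSeq promoter, and a gene counted as holding the motif if any of its starts did. By this count 14% of all genes held the motif and 17% of the genes tested. Of genes called higher 18.3% held it, and of genes called lower 16%. In the NRF2 list 9 of the 23 genes with a promoter in the table held it (39.1%), among them 6 of 11 called higher. The stretches around it are printed for the members of the list in which it lay before the gene start, with the motif in capitals, 5′ to 3′ on the strand of the gene, to show where these letters stand in genes called higher, called lower and not called.
Txnrd1 (higher at 24 h, chr10:82859099-82859137, plus strand, motif on the opposite strand): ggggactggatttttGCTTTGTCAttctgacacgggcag
G6pdx (higher, chrX:74428914-74428952, minus strand, motif on the opposite strand): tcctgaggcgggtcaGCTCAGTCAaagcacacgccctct
Abcc4 (higher, chr14:118676932-118676969, minus strand, motif on the same strand): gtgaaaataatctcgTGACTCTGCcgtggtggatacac
Abcc4, at another RefSeq start (chr14:118706221-118706259, minus strand, motif on the opposite strand): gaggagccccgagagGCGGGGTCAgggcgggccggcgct
Prdx1 (higher, chr4:116685451-116685489, plus strand, motif on the opposite strand): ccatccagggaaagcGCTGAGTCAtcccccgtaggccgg
Abcc2 (lower, chr19:43782195-43782233, plus strand, motif on the same strand): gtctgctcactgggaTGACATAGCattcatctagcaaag
Gclm (not called, chr3:122245408-122245446, plus strand, motif on the opposite strand): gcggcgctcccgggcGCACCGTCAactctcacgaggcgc
In Prdx1 the motif overlaps an AP-1 motif (TGACTCA), and in the other 6 stretches it does not. A match of letters is a description and not a binding site. Prdx1 encodes a peroxiredoxin and was at 641 to 1112 CPM in the mice, 1340 CPM in the control pool and 1350 CPM in the LKO pool (0.69 ± 0.18, edgeR adjusted p = 0.0124). Its call was lost without the control pool (0.76, edgeR adjusted p = 0.0881) and without the LKO pool (0.61, edgeR adjusted p = 0.134).

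Metallothioneins, small proteins that bind zinc and reactive molecules, were high in both pools but already scattered at 0 h. Of 7 genes in this list 3 were called higher (Mt1, Mt2, Slc39a14) and 1 lower (Slc39a4), with 1 higher and 0 lower without the control pool. Mt1 ran from 23.2 to 1570 CPM over the 8 mice (median 310) and was at 3464 CPM in the control pool and 1900 CPM in the LKO pool (2.90 ± 0.86, edgeR adjusted p = 0.022). No mouse reached the lower pool, but the highest came close, and the call was lost without the control pool (3.29, edgeR adjusted p = 0.114) or the LKO pool (2.42, edgeR adjusted p = 0.209).

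In the list of 12 P450 enzymes that activate APAP or mark the central-vein zone, 0 were called higher and 8 lower, with a median log2 change of -1.5 that was -2.69 in control and -0.92 in LKO, and without the control pool 5 were called lower. Cyp2e1 (chr7:140763739-140774987), the main enzyme that makes NAPQI, was at 4910 to 9605 CPM in the mice (median 7605), 1197 CPM in the control pool and 2471 CPM in the LKO pool. Both pools were below every mouse, with a change of -2.06 ± 0.32 (edgeR adjusted p = 0.000679). Cyp1a2 was at 638 to 1064 CPM in the mice (median 846), 57.5 CPM in the control pool and 179 CPM in the LKO pool (-2.83 ± 0.40, edgeR adjusted p = 0.000352). Cyp3a11 was at 3231 to 7933 CPM in the mice (median 5747), 926 CPM in the control pool and 1614 CPM in the LKO pool (-2.25 ± 0.37, edgeR adjusted p = 0.000986). All 3 were lower in the control pool than in the LKO pool, but the difference between the genotypes' changes was not called for any of them.

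Of 14 central-vein zone genes outside the P450s, 10 were called lower and 0 higher (median -1.72), and 7 were called lower without the control pool. Glul, the glutamine synthetase of the hepatocytes next to the central vein, was at 412 to 571 CPM in the mice (median 473), 169 CPM in the control pool and 114 CPM in the LKO pool (-1.78 ± 0.20, edgeR adjusted p = 9.6e-05). The ornithine aminotransferase gene Oat was at 470 to 771 CPM in the mice (median 599), 89.8 CPM in the control pool and 286 CPM in the LKO pool (-1.69 ± 0.37, edgeR adjusted p = 0.00452). Slc1a2, a glutamate importer of the same cells, lost nearly all of its reads and is described with the genotypes.

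Among 13 portal zonation and urea cycle genes 9 were called lower and 0 higher (median -1.02), with 5 called lower without the control pool. Gls2, the portal glutaminase, was at 333 to 449 CPM in the mice (median 369), 111 CPM in the control pool and 108 CPM in the LKO pool (-1.77 ± 0.16, edgeR adjusted p = 2.63e-05). Cyp2f2, a portal P450, was at 1353 to 2326 CPM in the mice (median 1801), 435 CPM in the control pool and 457 CPM in the LKO pool (-2.02 ± 0.23, edgeR adjusted p = 9.41e-05). For these portal genes the pools nearly coincided. In the glucuronidation and sulfation list, 7 of 12 were called lower and 0 higher (median -0.84). Without the control pool 1 was called lower and 1 higher (median -0.55). Papss2, which makes the sulfate donor, kept its call and fell by 1.52 ± 0.22 (edgeR adjusted p = 0.000404), from 114 to 192 CPM in the mice to 47.9 and 55.8 CPM in the control and LKO pools. Of 17 liver transcription factors 4 were called lower (Hnf4a, Cebpa, Nr5a2, Nr1i2) and 0 higher, with 1 called lower when either pool was left out. Of 11 hepatocyte markers tested 1 was called higher (Apoa1), 0 were called lower and the median was -0.08 (0.06 without TMM factors). The call of Apoa1 was lost without the control pool (0.60, edgeR adjusted p = 0.32) and without the LKO pool (0.96, edgeR adjusted p = 0.0904).

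In the AP-1 and immediate-early list 6 of 16 were called higher and 1 lower (Zfp36; median 0.94), with 4 called higher without the control pool. Fosl1, an AP-1 subunit, had 1 count over the 8 mice and 151 over both pools, a ratio of 537 with a wide counting interval of 94.9 to 21300. Klf6, a zinc-finger factor induced by injury, was at 9.12 to 14.0 CPM in the mice (median 10.3), 99.5 CPM in the control pool and 28.1 CPM in the LKO pool (2.48 ± 0.31, edgeR adjusted p = 0.000166). Ier3 was at 0.424 to 1.67 CPM in the mice (median 0.724), 9.46 CPM in the control pool and 6.78 CPM in the LKO pool (3.23 ± 0.35, edgeR adjusted p = 7.21e-05). In the growth factor and EGF receptor list, 7 of 15 were called higher and 1 lower (Vegfa; median 0.80), and 5 were higher without the control pool. Plaur, the receptor of the fibrin-clearing protease urokinase, was at 0.350 to 0.778 CPM in the mice, 17.9 CPM in the control pool and 10.1 CPM in the LKO pool (4.61 ± 0.28, edgeR adjusted p = 1e-06). Plat, the tissue plasminogen activator, was at 0.408 to 0.894 CPM in the mice, 9.03 CPM in the control pool and 7.24 CPM in the LKO pool (3.56 ± 0.27, edgeR adjusted p = 5.08e-06). Hbegf, a ligand of the EGF receptor, was at 0.604 to 1.18 CPM in the mice, 9.46 CPM in the control pool and 3.49 CPM in the LKO pool (2.76 ± 0.34, edgeR adjusted p = 0.000146).

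Among 19 p53 target genes 8 were called higher and 2 lower (Sesn2 and 9030617O03Rik; median 0.44), with 4 higher and 1 lower without the control pool and 4 and 2 without the LKO pool. Tnfrsf10b, a death receptor, was at 0.215 to 0.816 CPM in the mice (median 0.57), 2.83 CPM in the control pool and 1.80 CPM in the LKO pool (2.03 ± 0.34, edgeR adjusted p = 0.00106). Cdkn1a, which encodes the cell-cycle inhibitor p21, ran from 1.21 to 32.5 CPM over the mice (median 5.12) and was at 244 CPM in the control pool and 102 CPM in the LKO pool. Both pools lay above all mice and the call was 4.30 ± 0.89 (edgeR adjusted p = 0.00365), but it was lost without the control pool (3.28, edgeR adjusted p = 0.118).

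Of 25 ribosome biogenesis genes 20 were called higher and 0 lower (median 1.06), and 15 were called higher without the control pool. Nop56, a core protein of the particles that modify ribosomal RNA, was at 16.8 to 27.2 CPM in the mice (median 25.1), 84.5 CPM in the control pool and 92.0 CPM in the LKO pool (1.91 ± 0.15, edgeR adjusted p = 9.12e-06). Wdr43 (63.6 and 52.9 CPM in the control and LKO pools against 20.1 to 26.5 CPM) and Nhp2 (104 and 93.6 CPM against 18.1 to 32.4 CPM) lay as clearly above the mice. Of 31 proteasome subunits 15 were called higher and 0 lower (median 0.56), with 11 higher without the control pool and 6 without the LKO pool. Psmd8 of the regulatory lid was at 125 to 145 CPM in the mice (median 133), 297 CPM in the control pool and 235 CPM in the LKO pool (0.98 ± 0.12, edgeR adjusted p = 0.000138). Of 18 cytoplasmic aminoacyl-tRNA synthetases 4 were called higher (Rars, Hars, Lars, Gars) and 0 lower (median 0.28).

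Stress-response genes were mixed. Of 20 genes of the ER stress and integrated stress response 3 were called higher (Atf4, Psat1, Asns) and 2 lower (Chac1, Herpud1), with a median of 0.25 (-0.13 in control and 0.55 in LKO), and 1 was called higher and 0 lower without the control pool. Psat1, an enzyme of serine synthesis (chr19:15904678-15947337), was at 0.328 to 0.949 CPM in the mice (median 0.558), 26.7 CPM in the control pool and 30.1 CPM in the LKO pool. It rose by 5.65 ± 0.24 (edgeR adjusted p = 4.18e-08), by 5.46 in control and 5.82 in LKO. Chac1, which degrades glutathione, was at 7.01 to 27.1 CPM in the mice (median 16.1), 2.65 CPM in the control pool and 2.41 CPM in the LKO pool (-2.60 ± 0.53, edgeR adjusted p = 0.00333), and its call was lost without the control pool (-2.41, edgeR adjusted p = 0.0704). Heat shock genes were mostly not called, with 0 of 18 higher and 2 lower (median -0.19, with -0.44 in control and 0.11 in LKO). Those called lower were the near-identical Hspa1a and Hspa1b, whose reads cannot be fully told apart and whose calls were lost without the control pool (-1.17 and -1.87, edgeR adjusted p = 0.241 and 0.133).

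Of 29 actin and tubulin cytoskeleton genes 21 were called higher and 0 lower, with a median log2 change of 1.24 (1.5 in control and 1.10 in LKO), and 17 were called higher without the control pool. Anxa2, a membrane protein that binds actin and plasminogen, was at 7.98 to 12.7 CPM in the mice (median 10.5), 293 CPM in the control pool and 85.4 CPM in the LKO pool (4.06 ± 0.25, edgeR adjusted p = 1.16e-06). Tubb6, a beta-tubulin, was at 8.03 to 14.8 CPM in the mice, 101 CPM in the control pool and 59.8 CPM in the LKO pool (2.89 ± 0.18, edgeR adjusted p = 1.08e-06), with the reservation that tubulin genes share sequence. S100a11, a calcium-binding protein, was at 2.82 to 5.38 CPM in the mice, 43.3 CPM in the control pool and 25.2 CPM in the LKO pool (3.08 ± 0.23, edgeR adjusted p = 4.05e-06). These genes are also active in fibroblasts, leukocytes and fat cells, and the part of such cells in the rise was not tested. Of 11 YAP and SRF targets 3 were called higher (Ctgf, Ajuba, Myh9) and 1 lower (Amotl2; median 0.12, with 0.31 in control and -0.08 in LKO). Without the control pool 1 was called higher and 0 lower, and without the LKO pool 2 and 0.

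**Figure D3:**
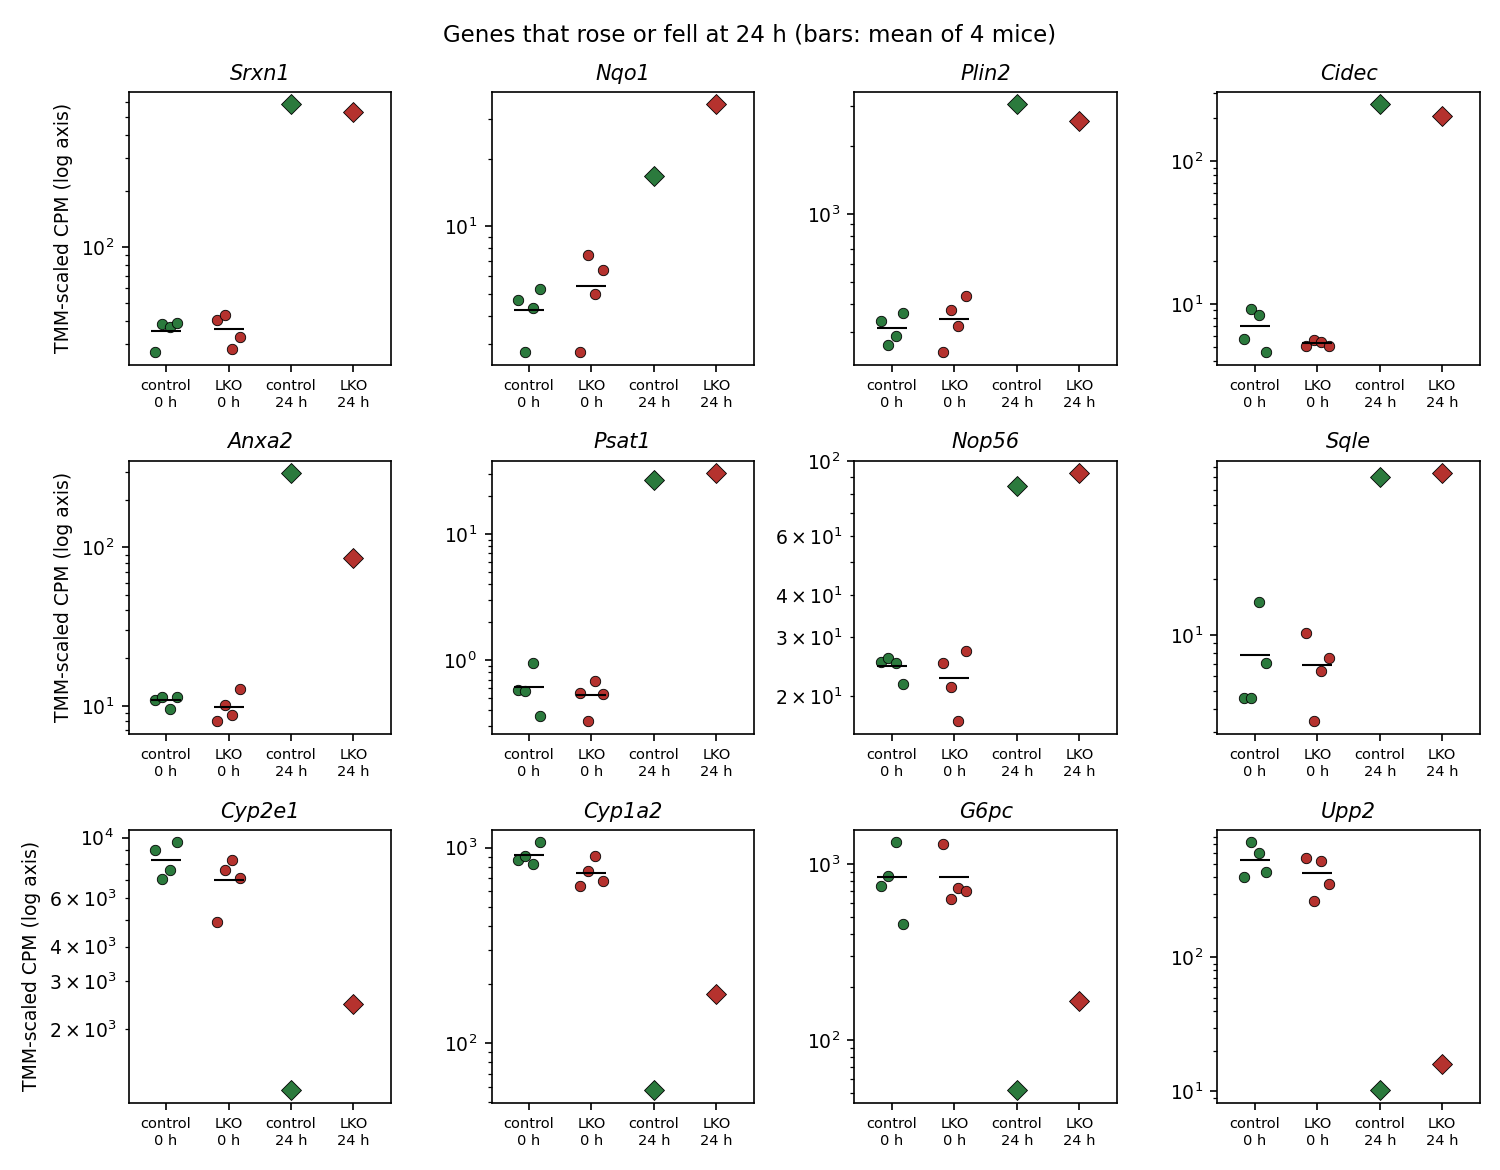
Expression of 12 genes that rose or fell at 24 h in each library (vertical axes, TMM-scaled CPM, logarithmic; circles, single mice at 0 h with the mean of 4 as a bar; diamonds, pools of 3 mice at 24 h; green, control; red, LKO). Srxn1, Nqo1, Plin2, Cidec, Anxa2, Psat1, Nop56 and Sqle lay above all 8 mice in both pools, and Cyp2e1, Cyp1a2, G6pc and Upp2 lay below all 8.

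Cidec and Plin2, which act at lipid droplets, rose, but no list of lipid-droplet genes was made. Cidec (chr6:113424634-113435760), which fuses lipid droplets, was at 4.58 to 9.27 CPM in the mice (median 5.49), 250 CPM in the control pool and 208 CPM in the LKO pool (5.23 ± 0.18, edgeR adjusted p = 2.05e-08). Plin2, the droplet coat protein of hepatocytes, was at 245 to 435 CPM in the mice (median 328), 3054 CPM in the control pool and 2585 CPM in the LKO pool (3.10 ± 0.18, edgeR adjusted p = 9.63e-07). Cidec is also a fat-cell gene, and the part of fat cells in its rise was not tested. Fabp4, a fatty-acid carrier of fat cells and macrophages, was at 4.43 to 8.67 CPM in the mice, 42.9 CPM in the control pool and 18.5 CPM in the LKO pool (2.41 ± 0.27, edgeR adjusted p = 9.6e-05). Hilpda, an inhibitor of droplet lipolysis induced by low oxygen, was at 1.03 to 3.02 CPM in the mice (median 1.49), 269 CPM in the control pool and 45.8 CPM in the LKO pool (6.28 ± 0.43, edgeR adjusted p = 2.33e-06). Pdk4, which shuts pyruvate out of oxidation, was at 4.60 to 8.11 CPM in the mice (median 5.17), 256 CPM in the control pool and 45.7 CPM in the LKO pool (4.53 ± 0.39, edgeR adjusted p = 1.73e-05). Both were lower in the LKO pool but still far above every mouse. Of 23 genes in the PPAR-alpha and ketogenesis list 4 were called higher (Plin2, Pdk4, Acot2, Cyp4a31) and 0 lower (median 0.12), with 2 higher without the control pool, where the calls of Acot2 (1.77, edgeR adjusted p = 0.116) and Cyp4a31 (1.06, edgeR adjusted p = 0.447) were lost. Of 15 hypoxia-responsive genes 6 were called higher and 2 lower (Vegfa, Pdk1; median 0.53), with 3 higher and 0 lower without the control pool.

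Of 20 cholesterol synthesis and LDL receptor genes 15 were called higher and 1 lower (Sc5d; median 1.15), and 10 were called higher when either pool was left out. Sqle, the squalene epoxidase, was at 3.44 to 15.1 CPM in the mice (median 6.74), 70.5 CPM in the control pool and 73.5 CPM in the LKO pool (3.30 ± 0.36, edgeR adjusted p = 7.15e-05). Hmgcs1, which makes the HMG-CoA used for sterols, was at 47.7 to 98.9 CPM in the mice (median 72.1), 230 CPM in the control pool and 268 CPM in the LKO pool (1.75 ± 0.19, edgeR adjusted p = 8.62e-05). Both genes lay far above every mouse in both pools. Of 16 lipogenesis genes 8 were called lower and 0 higher (median -0.75), and 3 were called lower when either pool was left out. Mlxipl, which encodes the carbohydrate-sensing factor ChREBP, was at 326 to 510 CPM in the mice (median 426), 74.9 CPM in the control pool and 117 CPM in the LKO pool (-2.15 ± 0.22, edgeR adjusted p = 5.43e-05).

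In the gluconeogenesis list 6 of 13 were called lower and 0 higher (median -1.10), and 4 without the control pool. G6pc, the glucose-6-phosphatase that releases glucose, was at 457 to 1332 CPM in the mice (median 742), 51.7 CPM in the control pool and 166 CPM in the LKO pool (-3.04 ± 0.52, edgeR adjusted p = 0.00118). Pck1, which commits oxaloacetate to glucose, was at 3479 to 7019 CPM in the mice (median 5031), 1345 CPM in the control pool and 1585 CPM in the LKO pool (-1.80 ± 0.27, edgeR adjusted p = 0.00057). Both genes are induced by fasting, and all untreated mice were fasted. In the bile acid list 11 of 18 were called lower and 1 higher (median -1.14), with 6 lower and 0 higher without the control pool. Abcb11, the bile salt export pump, was at 396 to 596 CPM in the mice (median 524), 101 CPM in the control pool and 184 CPM in the LKO pool (-1.87 ± 0.24, edgeR adjusted p = 0.000184). Slco1a1, an importer on the blood side, was at 222 to 573 CPM in the mice (median 388), 29.4 CPM in the control pool and 58.7 CPM in the LKO pool (-3.08 ± 0.42, edgeR adjusted p = 0.000294). Cyp7a1, the rate-limiting enzyme of bile acid synthesis, just missed the threshold: it was at 31.6 to 147 CPM in the mice, 2.47 CPM in the control pool and 27.1 CPM in the LKO pool (-2.29 ± 0.84, edgeR adjusted p = 0.0549). Its call depended on the setting and was made with DESeq2 (-2.33, adjusted p = 0.0199) and with all 18 libraries (-2.65, edgeR adjusted p = 0.0362). Without the LKO pool the change of Cyp7a1 was -4.87. Nuclear oxidative phosphorylation genes were mostly not called, with 4 of 27 lower (Sdha, Sdhb, Sdhc, Uqcrc1), 0 higher and a median of -0.17, and 0 were lower without the control pool.

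Of 24 acute-phase genes 9 were called higher and 2 lower (Crp, Saa4), with a median of 0.79 (0.35 in control and 0.98 in LKO), and 4 were higher without the LKO pool. Lcn2 (lipocalin-2, which binds bacterial iron carriers) ran from 1.69 to 33.0 CPM over the mice (median 7.58) and was at 248 CPM in the control pool and 576 CPM in the LKO pool (5.04 ± 0.69, edgeR adjusted p = 0.000303). Apcs (serum amyloid P) was at 99.5 to 299 CPM in the mice (median 156), 606 CPM in the control pool and 675 CPM in the LKO pool (1.97 ± 0.30, edgeR adjusted p = 0.000525). The well-known acute-phase genes Saa1, Saa2 and Saa3 were not called. Both lower calls of the list, Crp and Saa4, were lost without the control pool (-0.31 and -0.73). They were also lost with library-size scaling (-0.49 and -1.09, edgeR adjusted p = 0.0882 and 0.0586). Among 14 chemokines tested 5 were called higher (Cxcl1, Cxcl2, Cxcl14, Ccl2, Ccl6) and 1 lower (Cxcl9), with a median of 0.47. Leaving out a pool changed which members passed the filter. The median was 0.27 over 16 without the control pool and 0.73 over 15 without the LKO pool. The call of Ccl6 was lost without the control pool (1.54) or the LKO pool (0.73), and that of Cxcl9 without the LKO pool (-0.57). Cxcl1, which attracts neutrophils, was at 5.84 to 49.7 CPM in the mice (median 11.3), 229 CPM in the control pool and 127 CPM in the LKO pool (3.41 ± 0.42, edgeR adjusted p = 0.000161). Ccl2, which attracts monocytes, was at 0.138 to 1.27 CPM in the mice, 6.62 CPM in the control pool and 4.98 CPM in the LKO pool (3.37 ± 0.46, edgeR adjusted p = 0.00029). Of 18 feedback genes of NF-kB and STAT3 signalling 5 were called higher (Tnfaip3, Osmr, Cebpd, Nfkbiz, Icam1) and 1 lower (Nfkbia; median 0.47), with 2 higher and 0 lower when either pool was left out. Interferon-stimulated genes split by pool: 7 of 22 were called higher and 0 lower (median 0.67; 0.99 in control and -0.01 in LKO), and 0 were called without the control pool. The genotype difference was called for none of these 22.

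Markers of monocytes and recruited macrophages were called higher more often than lower, and those of Kupffer cells and sinusoidal endothelium lower more often than higher. Of 16 monocyte and recruited macrophage markers 10 were called higher and 0 lower (median 1.56), with 6 higher without the control pool. Cd14, the co-receptor for bacterial lipopolysaccharide, was at 2.30 to 7.51 CPM in the mice (median 3.82), 59.7 CPM in the control pool and 35.7 CPM in the LKO pool (3.57 ± 0.30, edgeR adjusted p = 1.2e-05). Cd68, a lysosomal protein of macrophages, was at 4.80 to 6.72 CPM in the mice (median 5.71), 35.7 CPM in the control pool and 14.1 CPM in the LKO pool (2.07 ± 0.25, edgeR adjusted p = 0.000127). Chil3, a chitinase-like protein of monocytes, was at 0 to 0.826 CPM in the mice, 8.13 CPM in the control pool and 9.75 CPM in the LKO pool (4.97 ± 0.52, edgeR adjusted p = 6.14e-05). The summed level of the list was dominated by genes that moved little, at 1370 to 1740 CPM in the mice and 1560 and 1840 CPM in the control and LKO pools. Its member Arg1 is also in the portal and urea cycle list, so this sum is not of monocyte and macrophage RNA alone. Of 8 neutrophil markers tested 5 were called higher (Il1r2, Retnlg, S100a8, S100a9, Clec4d) and 0 lower (median 2.43). The sum over all 13 neutrophil markers measured, tested or not, was only 3.10 to 13.7 CPM in the mice, 18.8 CPM in the control pool and 40.0 CPM in the LKO pool. Without the LKO pool 1 of them was called.

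Of 14 Kupffer cell markers tested, 6 were called lower and 1 higher (median -0.83), and the sum was 628 to 1430 CPM in the mice, 372 CPM in the control pool and 468 CPM in the LKO pool. Both pools were below every mouse in this sum, but when either pool was left out 0 genes were called lower, with medians of -0.78 without the control pool and -1.01 without the LKO pool. Marco, a scavenger receptor, was the gene called higher, at 1.04 to 3.99 CPM in the mice (median 2.21), 12.3 CPM in the control pool and 21.7 CPM in the LKO pool (2.80 ± 0.33, edgeR adjusted p = 0.000127). Among 15 sinusoidal endothelial markers 8 were called lower and 1 higher (median -0.60), with 3 lower without the control pool and 5 without the LKO pool. Stab2, which clears hyaluronan from the blood, was at 58.3 to 88.8 CPM in the mice (median 65.3), 22.2 CPM in the control pool and 27.2 CPM in the LKO pool (-1.51 ± 0.20, edgeR adjusted p = 0.000278). Dnase1l3 was at 61.6 to 89.8 CPM in the mice (median 76.2), 27.8 CPM in the control pool and 20.7 CPM in the LKO pool (-1.66 ± 0.19, edgeR adjusted p = 0.000117). Lyve1 went the other way, at 4.25 to 9.06 CPM in the mice, 12.0 CPM in the control pool and 18.5 CPM in the LKO pool (1.08 ± 0.24, edgeR adjusted p = 0.00485). Its call was lost without the LKO pool (0.81, edgeR adjusted p = 0.13).

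Stellate cell and matrix genes were mixed, with 6 of 20 called higher and 2 lower (Col1a1, Col3a1; median 0.25), with 1 higher and 0 lower without the control pool and 5 and 0 without the LKO pool. Acta2, the actin of activated stellate cells and smooth muscle, was at 0.699 to 1.58 CPM in the mice, 9.64 CPM in the control pool and 0.513 CPM in the LKO pool. It was called higher (1.95 ± 0.67, edgeR adjusted p = 0.042) on the control pool alone, and without that pool its value was -1.15 (edgeR adjusted p = 0.274). Of 10 T, NK and B cell markers tested 1 was called lower (Cd3e) and 0 higher, and 0 were called when either pool was left out. Of 10 cholangiocyte markers 2 were called higher (Sox9, Sprr1a) and 2 lower (Cldn7, Krt7), with 2 higher and 0 lower when either pool was left out. Of 7 fetal liver genes 3 were called higher (Afp, Ly6d, Cd24a) and 0 lower, with 1 higher without the control pool.

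Of 30 DNA replication genes 14 were called higher and 2 lower (Tk1, Mcm10), with a median of 0.93 (0.93 in control and 0.51 in LKO), and 6 were higher without the control pool. Mcm2, a subunit of the replicative helicase, was at 2.19 to 4.33 CPM in the mice (median 2.78), 10.4 CPM in the control pool and 13.9 CPM in the LKO pool (2.01 ± 0.20, edgeR adjusted p = 4.19e-05). Fen1, which processes Okazaki fragments, was at 3.05 to 5.65 CPM in the mice (median 4.44), 12.9 CPM in the control pool and 11.3 CPM in the LKO pool (1.41 ± 0.21, edgeR adjusted p = 0.000528). Of 17 G2 and mitosis genes tested 0 were called higher and 1 lower (median -0.11, or 0.04 without TMM factors, with 0.38 in control and -0.53 in LKO). Mki67, the proliferation marker, was at 0.757 to 3.50 CPM in the mice, 0.903 CPM in the control pool and 0.975 CPM in the LKO pool (-0.64 ± 0.43, edgeR adjusted p = 0.277). Both pools lay inside the range of the mice. The gene called lower was Birc5 (survivin), at 1.73 to 4.43 CPM in the mice, 0.602 CPM in the control pool and 0.308 CPM in the LKO pool (-2.50 ± 0.46, edgeR adjusted p = 0.00175). Of 17 G1 cyclins, CDKs and brakes 4 were called higher (Ccnd1, Ccne1, Cdc25a, Cdkn1a) and 3 lower (Ccnd2, Ccnd3, Cdkn1b; median 0.07), with 0 higher and 1 lower (Ccnd3) without the control pool. Ccnd1 (cyclin D1), at 15.8 to 40.8 CPM in the mice, 71.8 CPM in the control pool and 40.0 CPM in the LKO pool, was called (1.15 ± 0.30, edgeR adjusted p = 0.0126) but not without the control pool (0.70, edgeR adjusted p = 0.318).

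Of 18 core clock genes 8 were called lower and 0 higher (median -0.64), with 3 lower without the control pool and 4 without the LKO pool, and clock time cannot be told apart from treatment. Nr1d1 (REV-ERB alpha, a repressor of the clock) was at 180 to 295 CPM in the mice (median 210), 43.6 CPM in the control pool and 29.6 CPM in the LKO pool (-2.59 ± 0.24, edgeR adjusted p = 2.67e-05). Its partner Nr1d2 was at 72.0 to 128 CPM in the mice, 55.0 CPM in the control pool and 44.5 CPM in the LKO pool (-1.10 ± 0.20, edgeR adjusted p = 0.00153). In both cases the pools lay below every mouse.

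With predicted gene models left out, the largest increases among genes with a mean of at least 1 CPM were Ivl, Gml, Sprr1a, Slc7a11, Sult1e1, Gsta1, Cxcl2, Tpsab1, Hilpda and Ly6d. Ivl (involucrin, a protein of the skin's outer layer; chr3:92570902-92573735) had 3 counts over the 8 mice and 1433 over both pools, a ratio of 1700 (95% exact counting interval 580 to 8250), with 34.0 CPM in the control pool and 44.5 CPM in the LKO pool. Gml had 0 counts in every mouse and 251 in the pools, at least 298-fold higher when 3 counts over the group are taken as the limit. Sprr1a, a small proline-rich protein of stressed epithelia, had 3 and 661 counts, a ratio of 784 (267 to 3810), with 30.3 CPM in the control pool and 8.11 CPM in the LKO pool. Sult1e1, the estrogen sulfotransferase, was at 0 to 0.259 CPM in the mice, 13.5 CPM in the control pool and 27.8 CPM in the LKO pool (7.74 ± 0.45, edgeR adjusted p = 7.83e-07). Ly6d was at 0.0863 to 1.51 CPM in the mice, 68.8 CPM in the control pool and 30.4 CPM in the LKO pool (5.87 ± 0.42, edgeR adjusted p = 3.75e-06).

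Among the largest decreases by the same rule were Slc1a2, Mup8, Ppp1r3g, Mup2, Upp2, Rgs16, Hamp2 and Tbx6. Upp2 (uridine phosphorylase 2; chr2:58567298-58792971) was at 265 to 723 CPM in the mice (median 479), 10.2 CPM in the control pool and 16.1 CPM in the LKO pool (-5.17 ± 0.45, edgeR adjusted p = 1.81e-05). Ppp1r3g, a glycogen-targeting subunit of protein phosphatase, was at 31.8 to 84.3 CPM in the mice (median 62.2), 1.93 CPM in the control pool and 1.03 CPM in the LKO pool (-5.36 ± 0.53, edgeR adjusted p = 4.01e-05). Both genes were below every mouse in both pools. The calls of Mup8, Mup2, Hamp2, Rgs16 and Tbx6 were each lost without at least 1 pool. Among the increases, the call of Tpsab1 was lost with DESeq2 (adjusted p = 0.0764). The Mup genes are near-identical copies whose reads cannot be told apart.

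Separately, the control livers gave 1290 genes called higher (9.41% of 13705 tested) and 1003 lower (7.32%), and the LKO livers 850 higher (6.2%) and 566 lower (4.13%). Each of these contrasts has 1 pool at 24 h, which was assumed to vary like the mice at 0 h. The genotype difference in the change was called for 2 genes (0.0146% of those tested), and 548 had an unadjusted p under 0.05. Of the 1965 genes called higher in both genotypes together, the median change was 1.14 in control and 0.97 in LKO, and 60.3% changed more in control. Of the 1699 called lower, the medians were -1.07 and -0.93, and 66.6% changed more in control. Across the 13194 genes tested the changes of the genotypes correlated with r = 0.75, a description across genes, which are not independent replicates.

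**Figure D4:**
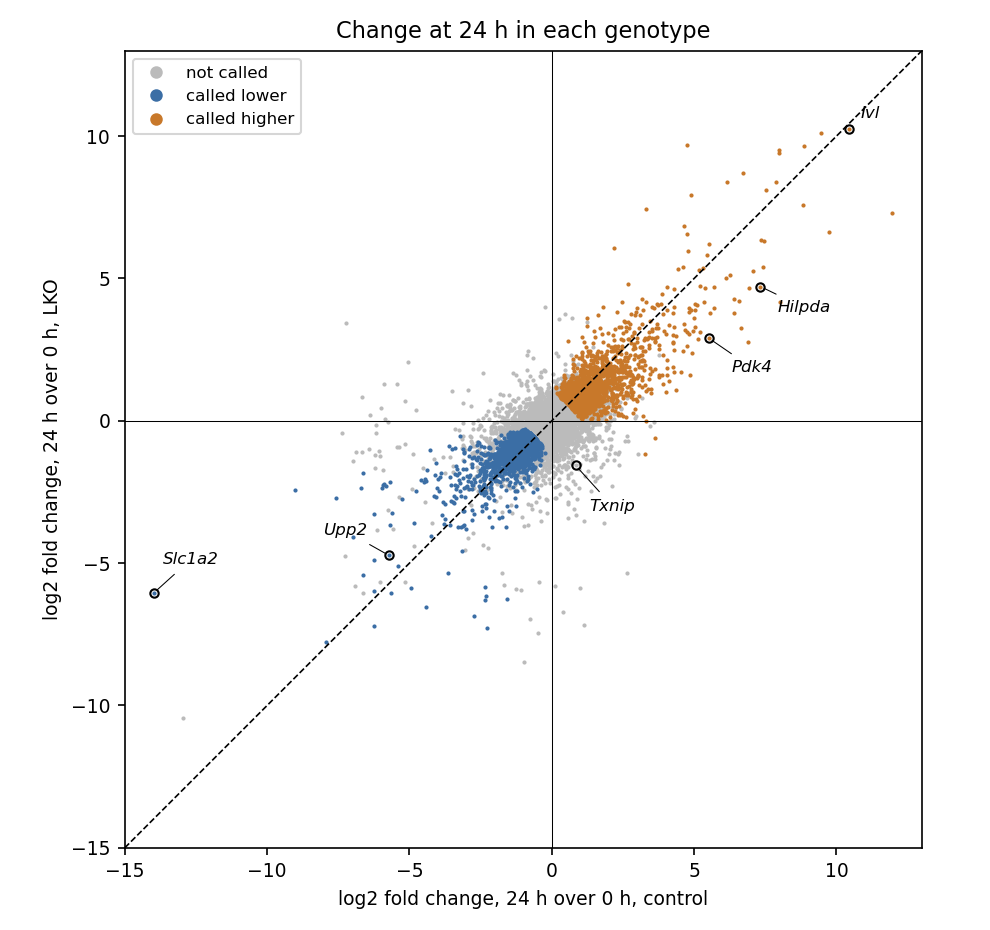
Log2 change from 0 h to 24 h in control (horizontal axis) and in LKO (vertical axis), each dot a gene tested (orange, called higher in both genotypes together; blue, called lower; grey, not called; dashed line, equal change). Ivl and Upp2 lie near the dashed line, Hilpda and Pdk4 rose more in control, and Txnip and Slc1a2 were called for the genotype difference.

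Txnip, an inhibitor of thioredoxin and of glucose uptake that is induced by glucose (chr3:96557957-96561883), went in opposite directions. It was at 186, 195, 161 and 180 CPM in the 4 control mice and 323 CPM in the control pool, and at 173, 204, 208 and 208 CPM in the 4 LKO mice and 67.0 CPM in the LKO pool. The control pool lay above and the LKO pool below all 8 mice. The changes were 0.83 in control and -1.56 in LKO, a difference of -2.40 (LKO minus control, edgeR adjusted p = 0.0461). Slc1a2 (chr2:102658659-102790784) fell in both genotypes. Its values were 103, 138, 124 and 124 CPM in the control mice, 124, 93.6, 121 and 96.7 CPM in the LKO mice, 0 in the control pool and 1.64 CPM in the LKO pool. In control the fall was at least 672-fold, from 7227 counts over 4 mice to 0, and the genotype difference was called (edgeR adjusted p = 0.0461), but its fitted size depends on the prior count because of that 0 and is no bound. Both genotype calls were lost with the stranded counts (edgeR adjusted p = 0.277 for Slc1a2 and 0.0794 for Txnip). That of Slc1a2 was also lost with DESeq2 (adjusted p = 0.138), with library-size scaling (edgeR adjusted p = 0.0718) and on leaving out any 1 of the 8 untreated mice (edgeR adjusted p = 0.0711 to 0.122), and that of Txnip on leaving out 6 of the 8 in turn. Pdk4, with changes of 5.51 in control and 2.91 in LKO, was not called for the difference (-2.61, edgeR adjusted p = 0.22).

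Against the pools of the neighbouring times, more genes were called against 12 h than against 48 h. At 24 h against 12 h, 1141 genes were called higher (8.24% of 13855 tested) and 1178 lower (8.5%). At 24 h against 48 h, 13 were called higher (0.0938%) and 90 lower (0.65%). The contrasts have 2 pools a time and the power of each was not compared. Counts fell to 648 and 501 against 12 h without the control and the LKO 24 h pool, to 1246 and 1522 without the control and the LKO 12 h pool, and against 48 h to 13 and 15 without the control and the LKO 24 h pool and to 66 without the LKO 48 h pool.

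Immediate-early genes were mostly lower than at 12 h. Of 16 tested 12 were called lower and 0 higher (median -1.68), with 7 lower without either control pool and 6 without the LKO 24 h pool. Of 18 heat shock genes 5 were called lower and 0 higher (median -0.60), and 3 without the control 24 h pool or either LKO pool. Fosb, an AP-1 subunit, was at 258 CPM in control and 41.3 CPM in LKO at 12 h and at 6.07 and 1.56 CPM at 24 h (-5.14, edgeR adjusted p = 0.0011). Atf3, a stress-induced repressor, was at 195 and 245 CPM at 12 h and 14.4 and 8.09 CPM at 24 h (-4.44, edgeR adjusted p = 0.00083). Hspa1b was at 105 and 496 CPM at 12 h and 9.34 and 17.1 CPM at 24 h (-4.50, edgeR adjusted p = 0.0026). All 3 genes were lower in both pools of 24 h than in either pool of 12 h. Hmox1 was at 735 and 213 CPM at 12 h and 69.3 and 45.1 CPM at 24 h (-2.91, edgeR adjusted p = 0.0012). Of 20 cholesterol synthesis and LDL receptor genes 14 were called higher than at 12 h and 0 lower (median 1.76), and 9 without the LKO 24 h pool. Of 30 DNA replication genes 12 were called higher and 0 lower (median 1.04), and the number was 3 without the control 24 h pool, 5 without the control 12 h pool, 7 without the LKO 12 h pool and 8 without the LKO 24 h pool. Sqle was at 11.5 and 5.34 CPM at 12 h and 71.0 and 74.3 CPM at 24 h (3.15, edgeR adjusted p = 0.0029). Mcm2 was at 3.03 and 3.60 CPM at 12 h and 10.4 and 14.0 CPM at 24 h (1.87, edgeR adjusted p = 0.0016). These 6 genes kept their calls when any single pool of 12 h or 24 h was left out.

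Mitosis genes were lower at 24 h than at 48 h. Of 24 G2 and mitosis genes tested 21 were called lower and 0 higher (median -4.15), although the number was 6 without the control 24 h pool and 7 without the LKO 24 h pool. Of 28 NRF2 target genes 3 were called higher (Srxn1, Txnrd1, G6pdx) and 0 lower (median 0.57), and 1 when any single pool of 24 h or 48 h was left out. Srxn1 was at 590 CPM in control and 539 CPM in LKO at 24 h and at 128 and 69.3 CPM at 48 h (2.55, edgeR adjusted p = 0.00062). Mki67 was at 0.910 and 0.985 CPM at 24 h and 36.0 and 30.8 CPM at 48 h (-5.18, edgeR adjusted p = 8e-05). Top2a, the topoisomerase of dividing cells, was at 1.46 and 1.71 CPM at 24 h and 25.9 and 27.9 CPM at 48 h (-4.11, edgeR adjusted p = 5.1e-05). For each gene both pools of one time lay beyond both pools of the other, and the calls were kept when any single pool of 24 h or 48 h was left out.

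**Figure D5:**
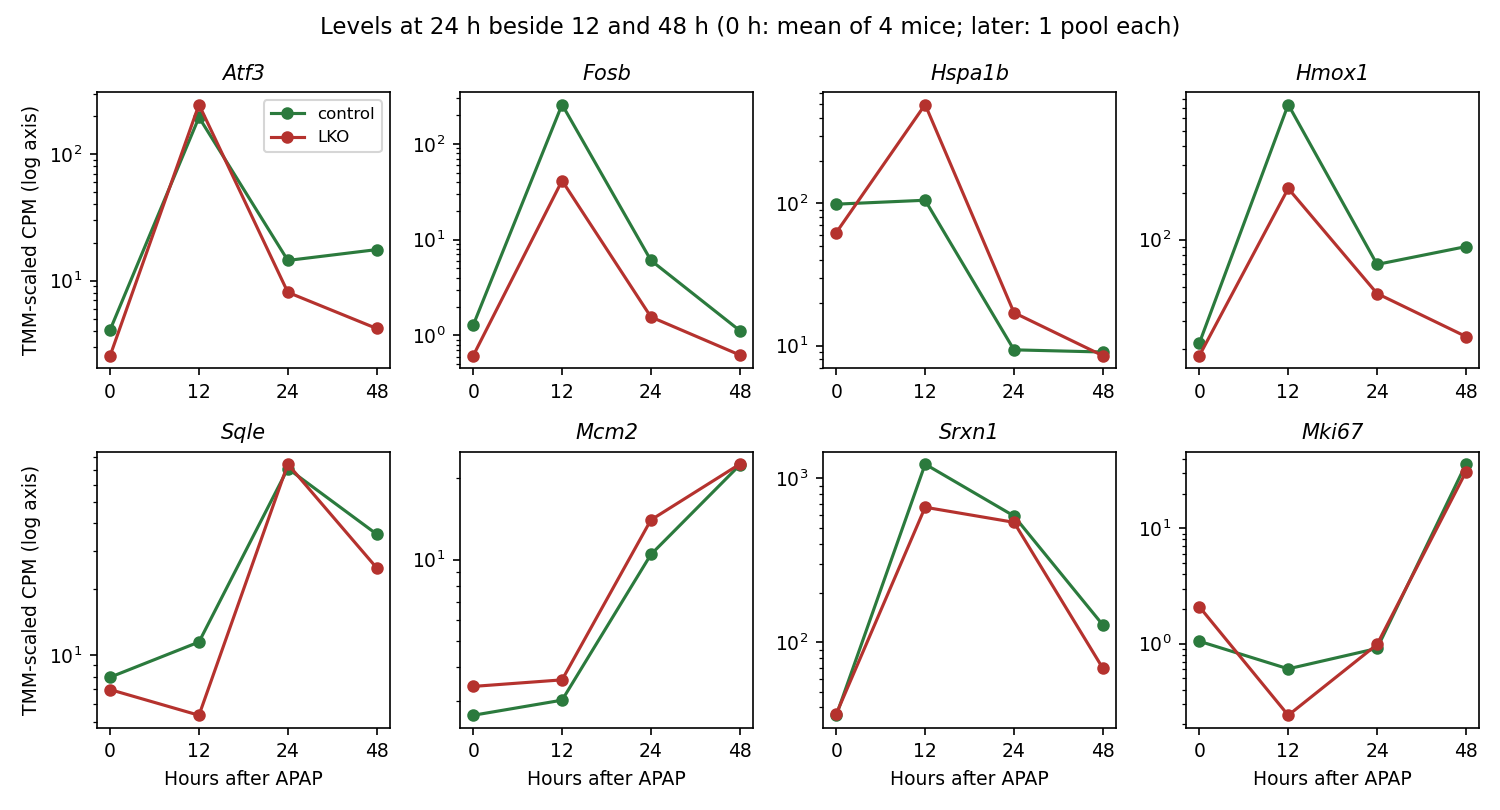
Expression of 8 genes at 0 h (mean of 4 mice) and at 12, 24 and 48 h after APAP (1 pool of 3 mice each; green, control; red, LKO; vertical axes, TMM-scaled CPM, logarithmic). Atf3, Fosb and Hmox1 were higher at 12 h than at 24 h in both genotypes, Sqle was at its highest of the times shown at 24 h (71.0 and 74.3 CPM), and Mki67 rose between 24 h and 48 h (to 36.0 and 30.8 CPM).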

How the data were processed

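Total liver RNA was extracted by the authors and sequenced by a service company, and the labels give the molecule as polyA RNA. Per the labels and the study's methods, reads were trimmed with Trimmomatic v0.38 and aligned to mm10 with STAR v2.6.1a, which wrote the deposited counts per gene; the annotation version is not given in the sources used here. The unstranded column was used, so reads of a gene and its antisense partner cannot be told apart, and the 4 entries without a gene name were dropped (8.47 to 10.7% of reads on no feature, 1.56 to 1.87% ambiguous, 5.33 to 8.06% multimapping, 3.74 to 20.6% unmapped). Low counts among the 24411 genes were removed by filterByExpr. TMM factors, and the quasi-likelihood test of edgeR 4.0.16 (R 4.3.3), were applied to the rest, with Benjamini-Hochberg adjustment over all genes tested. Called means an adjusted p below 0.05 together with a change of 1.5-fold or more. The main model had time and genotype as terms, with 7 residual degrees of freedom. Changes within a genotype and their difference came from a fit with 1 mean per group, and comparisons with 12 and 48 h from all 18 control and LKO libraries, which changes the scaling slightly. The SE is that of the log2 change.

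The gene lists (44 lists, 781 of 787 entries matched) and the rule for named genes (the 10 largest called changes each way, the 3 list members with the smallest adjusted p, the fat-cell list, and the 5 largest each way in the other contrasts) were chosen with earlier results of these data known. Genes outside that rule (Alb, Cyp3a11, Nqo1, Gclm, Hmox1, Abcc2, Abcc4, Prdx1, Oat, Cyp7a1, Cd68, Lyve1, Acta2, Ccnd1, further list members named without values, and Hmox1, Sqle and Mcm2 against 12 h) were named after their values were seen. Some results under that rule are not reported here. No test of a list was made. Promoters came from RefSeq (GRCm38.p6; 17224 genes matched) and gene positions from GENCODE vM21 (GRCm38; 23376 of 24411 symbols, 95.8%). Scripts were tested on simulated data. Alternatives were DESeq2 1.42.0, other scalings and filters, the stranded column, no genotype term, and leaving out each library. Counts of the lists under DESeq2 and library-size scaling, and against 12 and 48 h without each pool, were added after seeing the data. Intervals and limits of detection cover counting error only.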

Additional observations from a re-analysis of the deposited data

Results flagged for a closer look

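A single mouse stood far from the other 3 of its 0 h group in 28 of 243 groups of 4 compared (11.5%), by Dixon's ratio of the gap to the nearest mouse over the range of the group, held against its 95% critical value. For normally distributed values that value is passed in about 1 in 20 groups, a rate that need not hold for genes near 0 counts. For 12 of these the other 3 mice were at 0 or the value rests on 1 to a few reads: Adipoq (control 4, 0.0602 CPM; LKO 2, 0.0546), Cidea (control 4, 0.0602; LKO 1, 0.0688), Fosl1 (LKO 2, 0.0546), Ivl (control 3, 0.0863; LKO 4, 0.108), Retn (control 1, 0.116), Slc7a11 (control 4, 0.0602; LKO 2, 0.0546), Sprr1a (LKO 2, 0.164) and Tpsab1 (control 4, 0.482).

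LKO mouse 1 stood apart in Clec4f (168 CPM, the others 66.7 to 81.4), Csf1r (68.3, the others 31.4 to 36.5), G6pc (1300, the others 634 to 729), Mup2 (45.7, the others 2.10 to 7.65) and Txnip (173, the others 204 to 208). Control mouse 3 stood apart in Mup8 (15.4 CPM), Pdk4 (8.11) and Prdx1 (1110), and control mouse 4 in Hamp2 (56.7), Rgs16 (830) and S100a8 (1.99). Srxn1 was lowest in control mouse 1 (27.0 CPM, the others 36.9 to 38.8) and Top2a in control mouse 2 (0.495). LKO mouse 2 was highest in Rgs16 (468 CPM), and LKO mouse 4 in Mki67 (3.50) and Psmb3 (132). These values are single mice and the cause was not tested.

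The genotype difference in the change from 0 h to 24 h was called for Slc1a2 (fitted at 7.93 on the log2 scale, LKO minus control) and Txnip (-2.40), by edgeR's test of the difference (adjusted p = 0.0461 for each), with 1 pool per genotype at 24 h. The value of Slc1a2 is set against 0 counts in the control pool, so it depends on the prior count and is no size or bound. Its call was lost with DESeq2, library-size scaling, the stranded counts and without any single untreated mouse, and that of Txnip with the stranded counts and without 6 of the 8 mice.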

How the results depend on the processing

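No paired analysis was possible because the livers of 0 h and 24 h came from different mice and each 24 h library pooled 3 mice. The 3664 calls at 24 h against 0 h ranged from 1406 (without the control 24 h pool) to 3846 over single libraries left out, and was 2285 without the LKO 24 h pool; DESeq2 gave 3910. In control the leave-outs gave 1634 to 2581 calls and in LKO 944 to 1413. Library size alone gave 1915 higher and 643 lower in control and 1158 and 415 in LKO. The 2 genes called for the genotype difference became 28 by DESeq2, 1 by library size, 1 with at least 10 counts in every library, 0 in the stranded column and 0 to 3 on leaving out 1 mouse. Against 12 h the leave-outs gave 501 to 1522 calls, with 1650 higher and 651 lower by library size. Against 48 h they gave 13 to 125, with 368 by DESeq2 and 33 with at least 10 counts in every library. In 15 gene lists (counted by DESeq2 and library size, 19 and 18, as alternatives chosen after seeing the data) at least 50% of tested members were called one way, 6 without the control pool and 10 without the LKO pool. Of 3877 values for 196 named genes at 24 h against 0 h, 242 lost and 15 gained the call, and 3619 were counted as unchanged. In 1 value a called gene reversed its direction (Acta2, -1.149 without the control pool and 3.273 without the LKO pool). A change of sign was counted for genes called in the main fit only, so those counted as unchanged may include reversals of genes not called. A call was lost under at least 1 setting for 92 genes. Library size also turned the median of the hepatocyte list to 0.06 and of the mitosis list to 0.04. With 1 pool per genotype, the spread between treated mice is unknown. Cause was not tested for any of these changes.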

Other observations

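Of 10 erythroid markers 9 were measured and 1 (Alas2) passed the filter on low counts. The 6 globin genes of the list (Hba-a1, Hba-a2, Hbb-bs, Hbb-bt, Hbb-b1, Hbb-b2) had 0 counts in all 8 untreated mice. Whether reads of these genes could be counted at all was not tested, so the erythroid result rests on Alas2 alone. Of 12 pancreas acinar markers 2 passed the filter, of which Cela1 was called lower and Cela2a was not called. Alas2, the heme synthesis enzyme of red cell precursors, was at 18.1 to 28.4 CPM in the 8 untreated mice, 6.99 CPM in the control 24 h pool and 6.52 CPM in the LKO 24 h pool (-1.85 ± 0.21, edgeR adjusted p = 0.00011). Cela1, an elastase first described in pancreas, was at 35.0 to 58.4 CPM in the mice, 14.3 CPM in the control pool and 13.7 CPM in the LKO pool (-1.73 ± 0.20, edgeR adjusted p = 0.000118). In both genes the pools lay below every mouse.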
